A study of Mus musculus with 12 samples.

Results

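The T cell receptor variable segments are the genes whose symbol begins with Trav or Trbv, and 125 of the 39179 gene IDs in the count tables met that rule. They comprised 103 Trav segments of the alpha chain, on chromosome 14, and 22 Trbv segments of the beta chain, on chromosome 6. The libraries came from CD4 T cells of mice with the OT-II receptor transgene, which recognises an ovalbumin peptide presented by MHC class II. WT cells (strain C57BL/6 x OT-II) were sorted as Thy1.2+ and NKG2D+, and KO cells (OT-II x NKG2D-/-) as Thy1.1+ from the same co-culture. All cultures contained antigen-presenting cells, the OVA323-339 peptide and anti-CD28. To make Th1 cells IL-2 and IL-12 were added with an IL-4 block, whereas the cultures called Th17 here received IL-1b, IL-6 and IL-23 with IL-4 and IFNg blocks and, at the second stimulation, IL-12. Stimulation began on day 0 and was repeated on day 5, and cells were sorted on day 8. There were 4 groups, namely WT and KO cells from Th1 and from Th17 cultures, with 3 libraries each (12 in all). Every group carried the transgene. Genotype differed together with the Thy1 allele and the NKG2D gate, and their effects cannot be told apart. No Rag deletion is named in the labels. The labels do not say which libraries came from separate animals or cultures, so a p-value reflects only the spread among the libraries, which may be technical.

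A T cell receptor is a pair of an alpha and a beta chain. Each chain is assembled in the thymus by joining a variable segment to a joining segment (and, for beta, a diversity segment), and the messenger RNA then carries the variable exon spliced to the constant region. In an unselected repertoire the cells use many variable segments. The OT-II transgenes encode an already assembled V alpha 2 chain and V beta 5 chain, which in the IMGT naming used by the annotation are the Trav14 and Trbv12 families. A rearranged beta transgene is known to block rearrangement of the endogenous beta genes tightly, and an alpha transgene to block endogenous alpha rearrangement less completely. Parts of the mouse Trav locus are duplicated, and copies are marked by d or n in the symbol.

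The sequences of the segments with most counts show what read counting could and could not separate. The stretches below are from the variable exon (GRCm38, GENCODE M21, plus strand), printed 5′ to 3′. The Trav14 stretches leave out the first bases of the exon, and their substitutions and identities cover the printed bases only. Capitals in Trav14d-2 and Trav14d-3-dv8 mark bases that differ from Trav14d-1, and capitals in Trbv12-1 mark bases that differ from Trbv12-2. Trav14d-1 lies at chr14:52855869-52856166, Trav14d-2 at chr14:52948872-52949169 and Trav14d-3-dv8 at chr14:53078748-53079045.

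Trav14d-1: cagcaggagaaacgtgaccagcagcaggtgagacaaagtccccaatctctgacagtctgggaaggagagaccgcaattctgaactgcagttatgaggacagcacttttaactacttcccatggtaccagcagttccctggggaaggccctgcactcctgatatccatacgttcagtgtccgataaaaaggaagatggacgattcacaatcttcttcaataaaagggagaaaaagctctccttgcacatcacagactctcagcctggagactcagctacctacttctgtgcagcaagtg

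Trav14d-2: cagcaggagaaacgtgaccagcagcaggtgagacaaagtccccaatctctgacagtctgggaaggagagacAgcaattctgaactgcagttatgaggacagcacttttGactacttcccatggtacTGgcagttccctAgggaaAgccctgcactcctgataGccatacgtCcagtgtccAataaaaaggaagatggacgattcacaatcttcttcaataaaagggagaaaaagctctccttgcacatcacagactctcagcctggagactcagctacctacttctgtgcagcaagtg

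Trav14d-3-dv8: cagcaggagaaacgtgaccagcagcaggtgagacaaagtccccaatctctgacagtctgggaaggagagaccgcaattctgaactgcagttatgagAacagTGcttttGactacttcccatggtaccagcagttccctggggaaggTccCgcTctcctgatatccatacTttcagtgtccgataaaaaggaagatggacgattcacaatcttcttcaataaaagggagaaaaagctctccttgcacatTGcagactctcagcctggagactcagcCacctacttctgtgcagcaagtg

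Trav14n-1, at chr14:53166881-53167178, had the same bases as Trav14d-1, and neither annotated transcript had a 75-base window found in no other gene. Trav14n-2 was likewise identical to Trav14d-2, which differed from Trav14d-1 by 9 substitutions (97.0% identity). Trav14d-3-dv8 differed from Trav14d-1 by 11 substitutions (96.3% identity). A single 75-base read inside the Trav14d-1 transcript therefore fits at least 2 genes. The beta chain segments were more distinct. Trbv12-2 lies at chr6:41119072-41119364, Trbv12-1 at chr6:41113775-41114067 and Trbv26 at chr6:41227696-41227993.

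Trbv12-2: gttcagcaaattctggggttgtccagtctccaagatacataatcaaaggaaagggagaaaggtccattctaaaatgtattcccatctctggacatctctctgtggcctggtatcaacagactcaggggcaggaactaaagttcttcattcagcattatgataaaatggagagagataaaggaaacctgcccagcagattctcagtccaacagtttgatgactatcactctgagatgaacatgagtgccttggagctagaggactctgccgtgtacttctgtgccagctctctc

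Trbv12-1: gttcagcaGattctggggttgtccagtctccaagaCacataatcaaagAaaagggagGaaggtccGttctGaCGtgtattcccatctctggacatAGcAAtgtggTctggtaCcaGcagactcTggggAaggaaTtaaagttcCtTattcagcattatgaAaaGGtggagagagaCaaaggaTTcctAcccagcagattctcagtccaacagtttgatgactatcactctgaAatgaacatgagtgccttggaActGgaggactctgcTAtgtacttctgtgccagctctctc

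Trbv26: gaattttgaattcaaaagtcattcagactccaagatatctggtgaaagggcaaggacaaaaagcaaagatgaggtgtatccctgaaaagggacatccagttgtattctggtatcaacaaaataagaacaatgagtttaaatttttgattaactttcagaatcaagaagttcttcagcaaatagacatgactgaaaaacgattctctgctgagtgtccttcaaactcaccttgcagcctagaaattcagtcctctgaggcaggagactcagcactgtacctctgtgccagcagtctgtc

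Trbv12-1 and Trbv12-2 differed by 32 substitutions over 293 bases (89.1% identity). Trbv26, the second Trbv segment by counts, had 42.7% identity with Trbv12-2. Of the 22 Trbv segments, 21 had transcripts in which every 75-base window was unique among the annotated transcripts, against 11 of 103 Trav segments, and 32 Trav segments had no unique window at all.

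Library totals ran from 9108203 to 12688637 counts in 9 libraries and from 1647232 to 2731909 in 3 shallow ones (Th17 WT 2, Th17 WT 3 and Th17 KO 2). In the shallow libraries a single ID, ENSMUSG00000045999, took 18.3%, 48.1% and 51.0% of counts, against at most 0.00831% elsewhere. Levels are given as CPM, counts scaled to the TMM-normalised library size. Klrk1, which encodes NKG2D, measured 128 to 161 CPM in WT and 1.60 to 5.63 CPM in KO libraries. The cells carried the markers of CD4 T cells: Trac averaged 7934 CPM and Cd4 517 CPM over the 12 libraries, while of the CD8 genes Cd8a had 3 counts in all and Cd8b1 had 439, with 1.04 to 6.52 CPM in every library.

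One alpha segment dominated every library. The Trav14 family, 9 genes, held 98.6%, 98.5% and 98.7% of Trav counts in the Th1 WT libraries and 98.4%, 98.3% and 98.1% in Th1 KO. It held 98.2%, 98.1% and 98.0% in Th17 WT and 97.8%, 98.6% and 98.1% in Th17 KO. The ranges of Th1 WT and Th1 KO did not overlap, whereas those of Th17 WT and Th17 KO did. The group means were 98.6% ± 0.0729 (SD, n = 3), 98.3% ± 0.162, 98.1% ± 0.147 and 98.2% ± 0.388 in the same order. The Wilson 95% interval of a single library was narrowest in Th1 WT 1, from 98.5% to 98.8%, and widest in Th17 WT 3, from 97.3% to 98.4%; these intervals cover counting error only. The intervals of the closest Th1 WT and Th1 KO libraries overlapped, from 98.4% to 98.7% in Th1 WT 2 and from 98.2% to 98.6% in Th1 KO 1. Trav14d-1 alone made up 95.9% to 97.3% of Trav counts.

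The beta chain was less concentrated. The Trbv12 family held 72.6%, 71.7% and 72.6% of Trbv counts in Th1 WT and 70.6%, 71.2% and 70.3% in Th1 KO. Its share was 70.0%, 62.8% and 56.6% in Th17 WT, and 68.8%, 63.2% and 68.4% in Th17 KO. The low values were those of the 3 shallow libraries, which had 497, 173 and 152 Trbv counts, and the interval of Th17 WT 3 ran from 49.2% to 63.8%. Group means were 72.3% ± 0.476 and 70.7% ± 0.417 in WT and KO of Th1, and 63.2% ± 6.70 and 66.8% ± 3.14 in WT and KO of Th17 (SD, n = 3). Without the shallow libraries the share was 70.0% in the 1 remaining Th17 WT library and 68.6% in Th17 KO. The 6 Th1 libraries all lay above the 6 Th17 libraries, and within Th1 the WT and KO ranges did not overlap. Trbv12-2 gave nearly all of this, since Trbv12-1 had 83 counts over the 12 libraries against 15574 for Trbv12-2.

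**Figure D1:**
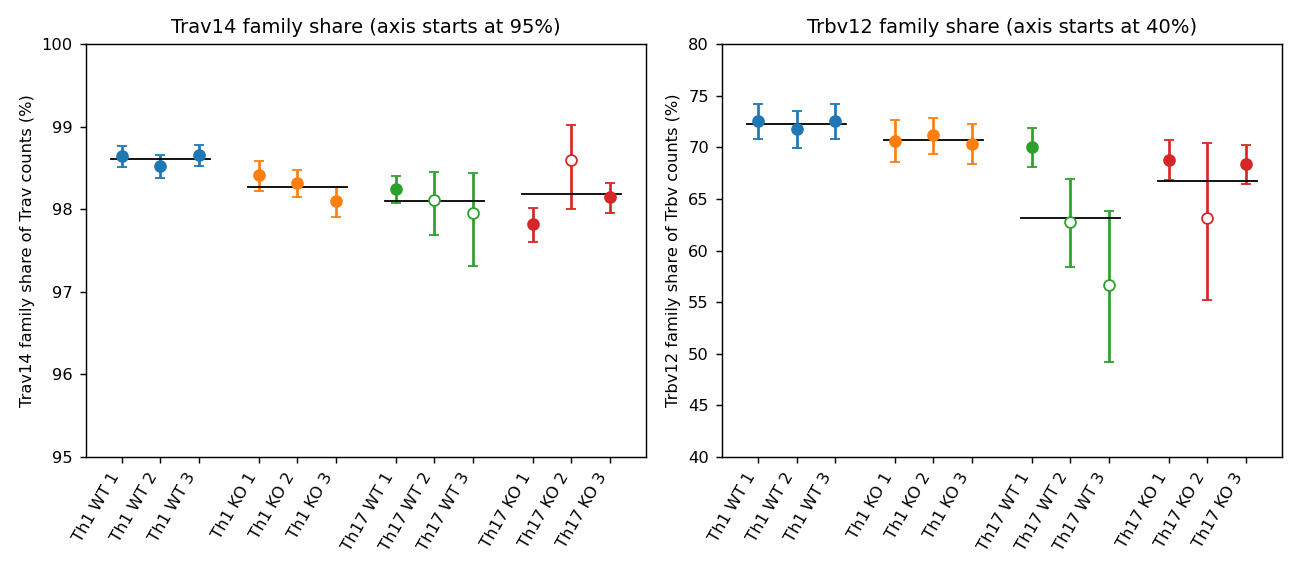
Share (%) of Trav counts in the Trav14 family (left) and of Trbv counts in the Trbv12 family (right) in each of the 12 libraries; error bars are Wilson 95% intervals, black lines are group means, open points are the 3 shallow libraries, and the axes start at 95% and 40%. The Trav14 share stays between 97.8% and 98.7%, while the Trbv12 share reaches 56.6% in Th17 WT 3.

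Per kilobase of exon, Trav14d-1 averaged 4580 CPM and Trbv12-2 averaged 325 CPM over the 12 libraries. Trav14 counts exceeded Trbv12 counts 11.8-fold to 24.9-fold. The constant regions, which carry all chains whatever their variable segment, differed in the same direction: Trac counts were 11.9 to 15.5 times the summed counts of Trbc1 and Trbc2. Reads matching both Trbc1 and Trbc2 could have gone uncounted, and shared windows were not examined for the constant regions. The highest Trav14 to Trbv12 ratios, 24.9 and 21.9, belonged to the shallow libraries Th17 WT 3 and Th17 KO 2.

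The level of Trav14d-1 was 2169, 2074 and 2054 CPM in Th1 WT and 1644, 1578 and 1603 CPM in Th1 KO. Each Th1 KO library was below each Th1 WT library. In Th17 WT it was 1973, 1861 and 2501 CPM, and in Th17 KO 1415, 2181 and 1756 CPM, with overlapping ranges. The log2 fold change of KO against WT was -0.38 (SE 0.14) in Th1, which did not pass the threshold of 0.05 in the edgeR quasi-likelihood test (adjusted p = 0.19), and -0.25 (SE 0.14, adjusted p = 0.431) in Th17. The Th1 difference was between -0.40 and -0.36 in all 19 alternatives, and its call changed in 5 of them. It passed with edgeR when the shallow libraries were left out (adjusted p = 0.00264), when Th17 KO 1 (0.0163) or Th17 KO 2 (0.0287) was left out, when only the Th1 groups were fitted (1.18e-05) and with no filter on low counts (0.000588). In Th17 the difference was -0.41 without Th17 KO 2 (edgeR adjusted p = 0.0361). The difference between the Th17 and Th1 genotype effects was 0.14 (SE 0.20, edgeR adjusted p = 0.914).

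Trav14 counts relative to Trac, the alpha constant region, gave a comparison within the chain. They were 25.8, 24.1 and 25.9 per 100 Trac counts in Th1 WT and 20.98, 19.5 and 21.3 in Th1 KO, with no overlap. They were 26.4, 23.0 and 29.7 in Th17 WT and 20.1, 30.6 and 25.0 in Th17 KO, with overlap. Trac itself did not pass the edgeR test between genotypes of Th1 cells (difference of -0.08 on the log2 scale, SE 0.08, adjusted p = 0.718). The summed level of the 94 other Trav segments overlapped between Th1 WT (28.4 to 31.6 CPM) and Th1 KO (27.2 to 31.7 CPM). The lower Trav14 share in Th1 KO thus came with a lower Trav14 level and a similar range of the other segments.

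Trbv12-2, the beta chain segment of the transgene, was closer between genotypes. It measured 141, 138 and 135 CPM in Th1 WT and 131, 128 and 119 CPM in Th1 KO. It measured 134, 122 and 101 CPM in Th17 WT and 122, 99.8 and 132 CPM in Th17 KO, the lowest values being those of Th17 WT 3 and Th17 KO 2. The KO against WT log2 fold changes were -0.13 (SE 0.08, edgeR adjusted p = 0.42) in Th1, where the ranges did not overlap, and -0.01 (SE 0.09, edgeR adjusted p = 0.983) in Th17, where they did.

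**Figure D2:**
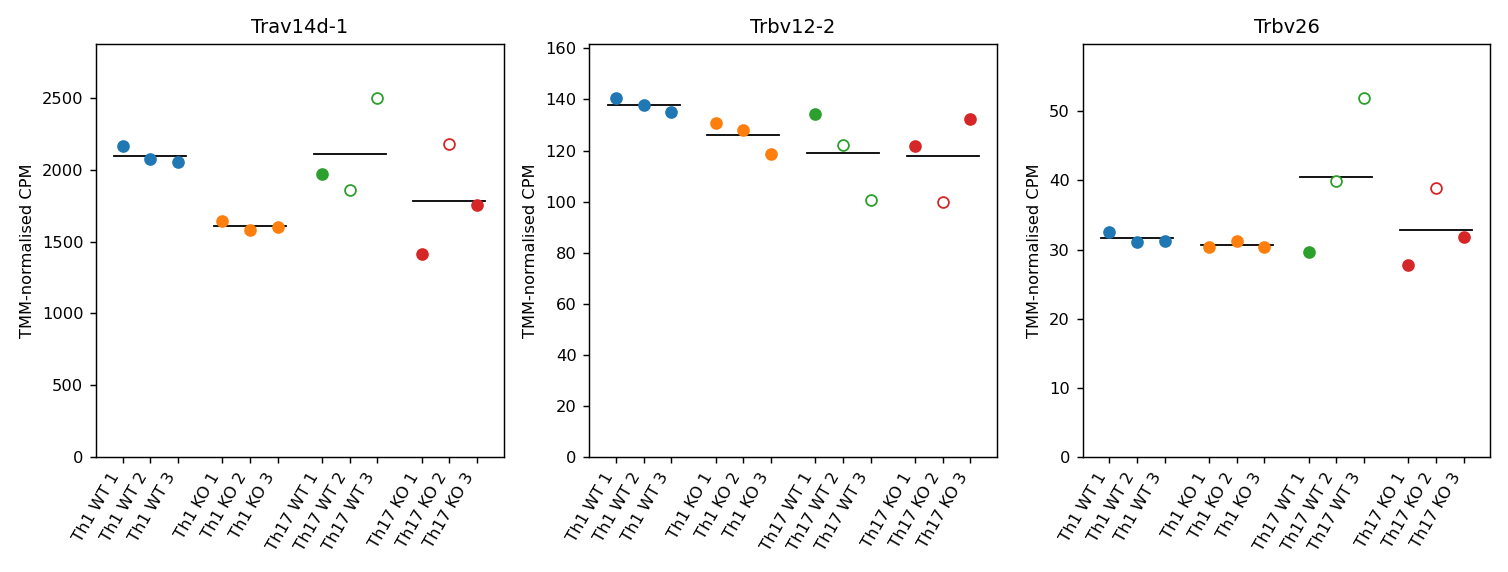
TMM-normalised CPM of Trav14d-1, Trbv12-2 and Trbv26 in each library, on axes that start at 0; black lines are group means and open points are the 3 shallow libraries. Th1 KO libraries lie below Th1 WT libraries for Trav14d-1, and Trbv26 is highest in the shallow libraries.

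Within the Trav14 family the counts did not follow the sequence. Trav14d-1 had 217491 counts over the 12 libraries and the identical Trav14n-1 had 2904, a ratio of 44.9 to 134 in single libraries. The processing notes available here do not say how reads matching several genes were assigned, and what divided the pair was not tested, so the single-copy values are uncertain. With the family copies summed to 1 feature, the KO against WT log2 fold change was -0.37 (edgeR adjusted p = 0.195) in Th1 and -0.24 (0.431) in Th17. Trav14d-2 had 157 counts in Th1 KO 1 and 0 in the other 11 libraries, while its identical copy Trav14n-2 had 3 counts, all in Th1 KO 1. Trav14d-3-dv8 had 3 and 2 counts in Th1 KO 1 and Th1 KO 2 and 36 to 58 in the other 4 Th1 libraries. Its difference between Th1 KO and Th1 WT was -1.52 (SE 0.74, edgeR adjusted p = 0.359) on the log2 scale, and -3.94 with an edgeR adjusted p of 2.92e-05 when Th1 KO 3 was left out. The other members, Trav14-3, Trav14-2, Trav14-1 and Trav14n-3, had 284, 130, 113 and 72 counts in all.

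Outside the Trav14 family the alpha chain signal was small and spread over many genes. The 94 other Trav segments together gave 1.35% to 2.18% of Trav counts, or 27.2 to 53.0 CPM. Of the 103 Trav segments, 77 had a count in at least 1 library and 13 in all 12, and 26 had none. A count of 0 in a library allows a level of up to 0.208 to 3.15 CPM, depending on its depth. The 8 with the highest mean CPM were Trav3-3, Trav17, Trav12-2, Trav6-7-dv9, Trav12-3, Trav21-dv12, Trav13-1 and Trav8-2, the last annotated as a pseudogene. Per kilobase of exon their mean levels over the 12 libraries ran from 3.75 CPM for Trav12-3 to 5.76 CPM for Trav17, against 4580 CPM for Trav14d-1. Of the segments of invariant T cells, Trav1, used by MAIT cells, had 11 counts in all libraries. Trav11, used by NKT cells, had 0 counts and its copy Trav11d had 2. Neither has a 75-base window found in no other gene, and each shares more windows with the other than with any other gene. Reads of both could therefore have gone uncounted.

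Sequence uniqueness and position moved with the counts. The 43 other Trav segments with neither d nor n in the name held 87.9% of the counts outside the family, with a median of 79.4% of windows unique. The 29 d copies (275 counts, median 6.60% unique) and the 22 n copies (175 counts, median 0% unique) held the rest. Among the 26 other segments with at least 80% of windows unique, the 13 nearer the 3′ end of the locus, which lies toward the joining segments, had 1668 counts (median 146), against 277 counts (median 17) for the 13 nearer the 5′ end. These values are a description of summed libraries.

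**Figure D3:**
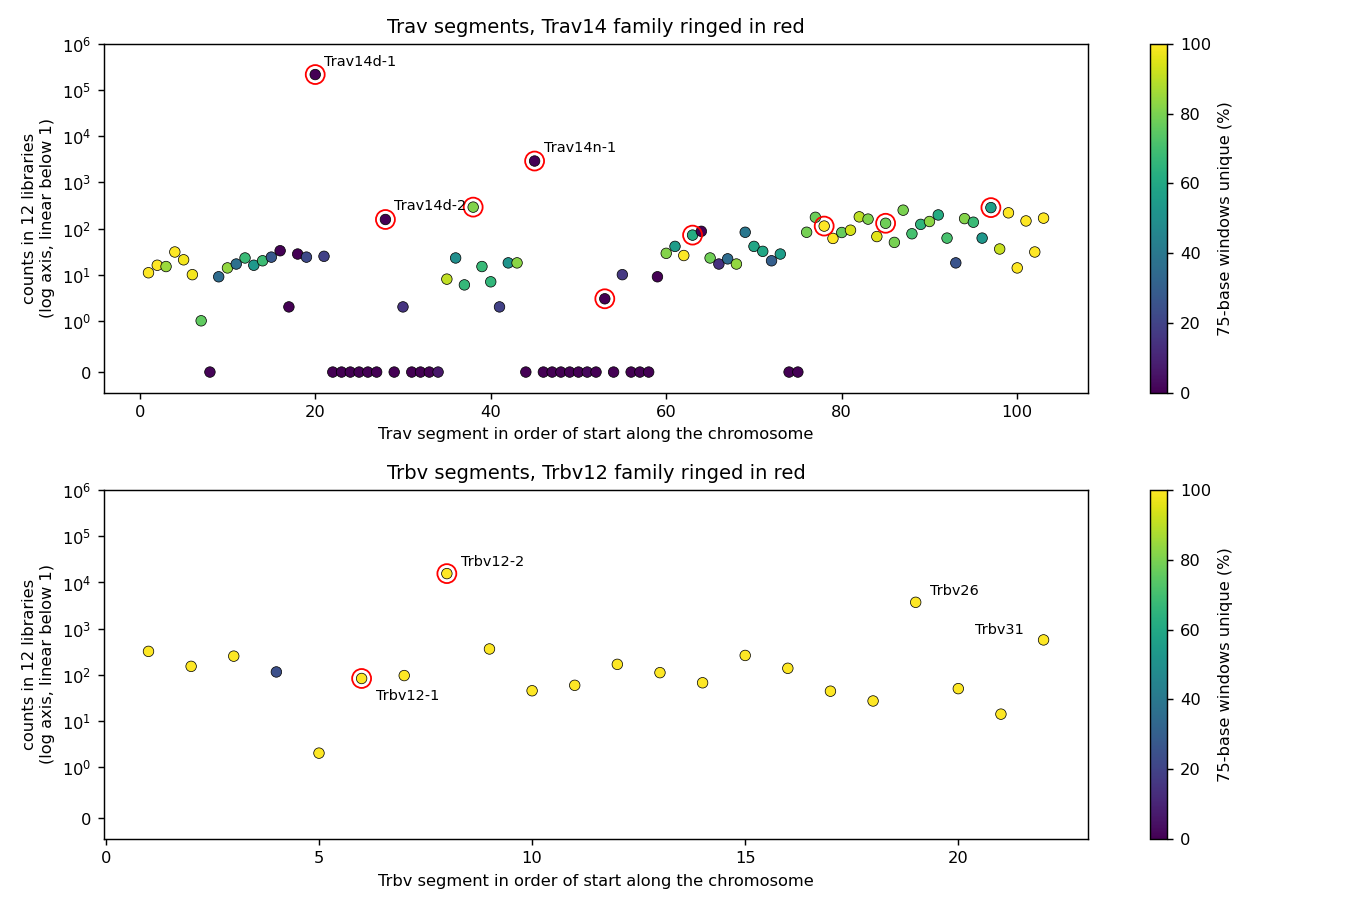
Counts summed over 12 libraries for each Trav (top) and Trbv (bottom) segment in order along its chromosome, on a log axis that is linear below 1; colour is the percentage of 75-base windows unique to the segment, and red rings mark the Trav14 and Trbv12 families. Trav14d-1, with 217491 counts, stands above Trav14n-1, with 2904, and segments with 0 counts are mostly those with few unique windows.

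Among the beta chain segments, Trbv26 stood apart from the other 19 outside the family. It measured 32.5, 31.1 and 31.3 CPM in Th1 WT and 30.4, 31.2 and 30.4 CPM in Th1 KO. It measured 29.7, 39.9 and 51.9 CPM in Th17 WT and 27.8, 38.9 and 31.8 CPM in Th17 KO, with the high values in the shallow libraries. Trbv26 took 15.4% to 28.9% of Trbv counts. Per 100 Trbv12-2 counts it had 22.1 to 25.6 in the 9 deeper libraries and 32.7, 51.5 and 38.9 in the shallow Th17 WT 2, Th17 WT 3 and Th17 KO 2. KO against WT, its log2 fold change was -0.04 (SE 0.10, edgeR adjusted p = 0.903) in Th1 and -0.20 (SE 0.13, edgeR adjusted p = 0.496) in Th17. Without Th17 WT 1 the Th17 value was -0.52 (edgeR adjusted p = 0.0352). That fit keeps only the shallow Th17 WT 2 and Th17 WT 3 in WT, so depth and genotype cannot be told apart in it.

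The other 19 Trbv segments together gave 10.7% to 16.9% of Trbv counts. Those with the highest mean CPM were Trbv31, Trbv13-2, Trbv1, Trbv3, Trbv19, Trbv15 and Trbv2. Per kilobase of exon their means over the 12 libraries ran from 2.35 CPM for Trbv2 to 11.2 CPM for Trbv31, against 92.4 CPM for Trbv26 and 325 CPM for Trbv12-2. All 22 Trbv segments had a count, and 10 were seen in every library. Trbv10, a pseudogene, had 2 counts.

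To compare the number of segments seen without the effect of depth, each library was thinned to the smallest total, 1647232 counts, and the expected number of segments with a count was computed. Of the 94 other Trav segments, 28.6 to 30.0 were expected in the Th1 WT libraries and 26.0 to 29.7 in Th1 KO. The number was 28.4 to 31.9 in Th17 WT, and 32.9, 17.6 and 28.8 in Th17 KO. Of the 20 other Trbv segments, 13.9 to 14.4 were expected in the Th1 WT libraries and 12.95 to 14.8 in Th1 KO. Here the number was 12 to 15.8 in Th17 WT, and 14.7, 9.82 and 15.9 in Th17 KO. The low value in each case was Th17 KO 2, in which ENSMUSG00000045999 took 51.0% of counts. Th17 WT 3, where the same ID took 48.1%, had 31.0 Trav and 12 Trbv segments. What set Th17 KO 2 apart was not tested. With that ID left out of all totals, Th17 KO 2 had 18.0 Trav segments, within the 17.7 to 30.8 of the other 11 libraries. The 30.8 was that of the shallow Th17 WT 3, and the next highest was 21.96 in Th17 WT 1. Th17 KO 2 then had 10 Trbv segments, still below the 10.1 to 13.5 of the others.

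The genotype contrast gave no call among single segments. Of the 125 segments, 38 passed the filter on low counts. In edgeR, 0 of these 38 were called between KO and WT in Th1, where 4.61% of 12189 genes were called, and 0 in Th17, where 5.83% were called. At an unadjusted p under 0.05 there were 2 in Th1 (Trav14d-1 and Trbv5) and 1 in Th17 (Trav12-2). DESeq2 also called 0 in both. For the difference between the 2 genotype effects, edgeR called 0 of 38 beside 0.591% of all genes, with 1 at an unadjusted p under 0.05 (Trav12-2), and DESeq2 called 0. The median log2 fold change of the 38 segments was -0.02 in Th1 and -0.12 in Th17, beside 0.00 over all genes tested in each.

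Between culture conditions 5 segments were called in WT, 4 higher and 1 lower in Th17, where 47.1% of all genes were called (23.5% higher and 23.6% lower). In KO 4 were called, 3 higher and 1 lower, beside 53.6% of all genes (26.9% higher and 26.7% lower). The median log2 fold change of the 38 segments was 0.26 in WT and 0.14 in KO, against -0.01 and 0.00 over all genes. Both comparisons use edgeR adjusted p-values. Each contrast of conditions shares its libraries with the genotype contrasts.

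Trbv13-2 was higher in Th17 in both genotypes. It measured 3.19, 2.27 and 2.22 CPM in Th1 WT and 3.81, 5.54 and 3.11 CPM in Th17 WT, with overlapping ranges. It measured 2.36, 2.15 and 2.26 CPM in Th1 KO and 4.28, 5.25 and 4.28 CPM in Th17 KO, without overlap. Its log2 fold change was 0.69 (SE 0.26, edgeR adjusted p = 0.034) in WT and 0.94 (SE 0.24, edgeR adjusted p = 0.00155) in KO. The WT call was lost when Th1 WT 2, Th1 WT 3, Th17 WT 1 or Th17 WT 2 was left out (edgeR adjusted p = 0.0861 to 0.137), without the shallow libraries (0.135), with no filter (0.0905) and with DESeq2 (0.0947). The KO call was kept under all 19 alternatives (0.00148 to 0.0102).

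The other calls rested on few counts. In WT, Trav12-2 rose by 1.10 (SE 0.41, edgeR adjusted p = 0.0288), Trav8-2 by 1.28 (SE 0.42, 0.0134) and Trbv3 by 0.96 (SE 0.35, 0.0262) on the log2 scale. Trav12-2 measured 1.38, 1.18 and 1.11 CPM in Th1 WT and 1.86, 4.35 and 4.15 CPM in Th17 WT, the last 2 being shallow libraries with 11 and 4 counts. Trav8-2 measured 0.580, 1.02 and 1.18 CPM in Th1 WT and 2.37, 1.19 and 4.15 CPM in Th17 WT. The Trav12-2 and Trav8-2 ranges did not overlap. For Trav8-2 they nearly met, at 1.179 CPM in Th1 WT 3 and 1.187 CPM in Th17 WT 2. The shallow Th17 WT 2 and Th17 WT 3 had only 3 and 4 counts of it. Trbv3 measured 1.31, 2.12 and 1.39 CPM against 2.71, 4.75 and 2.08 CPM, with overlap. In KO, Trav7-4 rose by 1.24 (SE 0.49, edgeR adjusted p = 0.0343) and Trbv13-1 by 1.61 (SE 0.47, 0.00556). Trbv13-1 measured 0.284, 0.625 and 0.242 CPM in Th1 KO and 0.934, 1.05 and 1.596 CPM in Th17 KO, from 1 to 19 counts a library, and Trav7-4 measured 0.567, 0.556 and 0.162 CPM against 0.857, 2.10 and 1.09 CPM. Neither pair of ranges overlapped. Trav7-4 had 6, 8 and 2 counts in Th1 KO and 11, 2 and 13 in Th17 KO, and its 2.10 CPM was 2 counts in the shallow Th17 KO 2. The share of all genes with separate ranges was not computed. Without the shallow libraries the edgeR adjusted p was 0.292 for Trav12-2, 0.134 for Trbv3 and 0.0676 for Trav7-4. DESeq2 gave adjusted p-values of 0.054 for Trbv3 and 0.1 for Trav7-4, and edgeR with no filter gave 0.0665 for Trav7-4. Single libraries ended these calls too. Trav12-2 lost its call without Th1 WT 2, Th1 WT 3, Th17 WT 2 or Th17 WT 3 (edgeR adjusted p = 0.0586 to 0.162). Trav8-2 lost it without Th1 WT 1 (0.0581) or Th17 WT 1 (0.243). Trbv3 lost it without Th1 WT 1 (0.0753), Th1 WT 3 (0.0709) or Th17 WT 2 (0.128), Trav7-4 without Th1 KO 3 (0.162), Th17 KO 2 (0.0549) or Th17 KO 3 (0.13), and Trbv13-1 without Th17 KO 3 (0.103).

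The segment called lower in Th17 was Trav14n-1, the minor identical copy of Trav14d-1. It measured 26.0, 25.2 and 23.6 CPM in Th1 WT and 18.5, 18.98 and 18.7 CPM in Th17 WT, and 24.1, 35.2 and 23.2 CPM in Th1 KO against 20.2, 25.2 and 22.5 CPM in Th17 KO. The ranges were apart in WT and overlapped in KO. The log2 fold change was -0.42 (SE 0.15, edgeR adjusted p = 0.0295) in WT and -0.36 (SE 0.13, 0.0283) in KO. It was no longer called in WT without Th1 WT 1, Th1 WT 2 or any 1 of the Th17 WT libraries (edgeR adjusted p = 0.0524 to 0.232), nor in KO without Th1 KO 2, Th17 KO 1 or Th17 KO 3 (0.0528 to 0.365). Without Th1 KO 2 the KO value was -0.13. Without the shallow libraries the edgeR adjusted p was 0.155 in WT and 0.0777 in KO, with only the groups compared 0.115 in KO, and DESeq2 gave adjusted p-values of 0.0617 and 0.0942. Trav14d-1 gave 0.01 (SE 0.14, edgeR adjusted p = 0.984) in WT and 0.14 (SE 0.14, edgeR adjusted p = 0.431) in KO. With the family copies summed to 1 feature, the value was 0.0016 (edgeR adjusted p = 0.996) in WT and 0.13 (0.456) in KO. Trav14n-1 has no unique 75-base window, so its values depend on how shared reads were assigned.

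**Figure D4:**
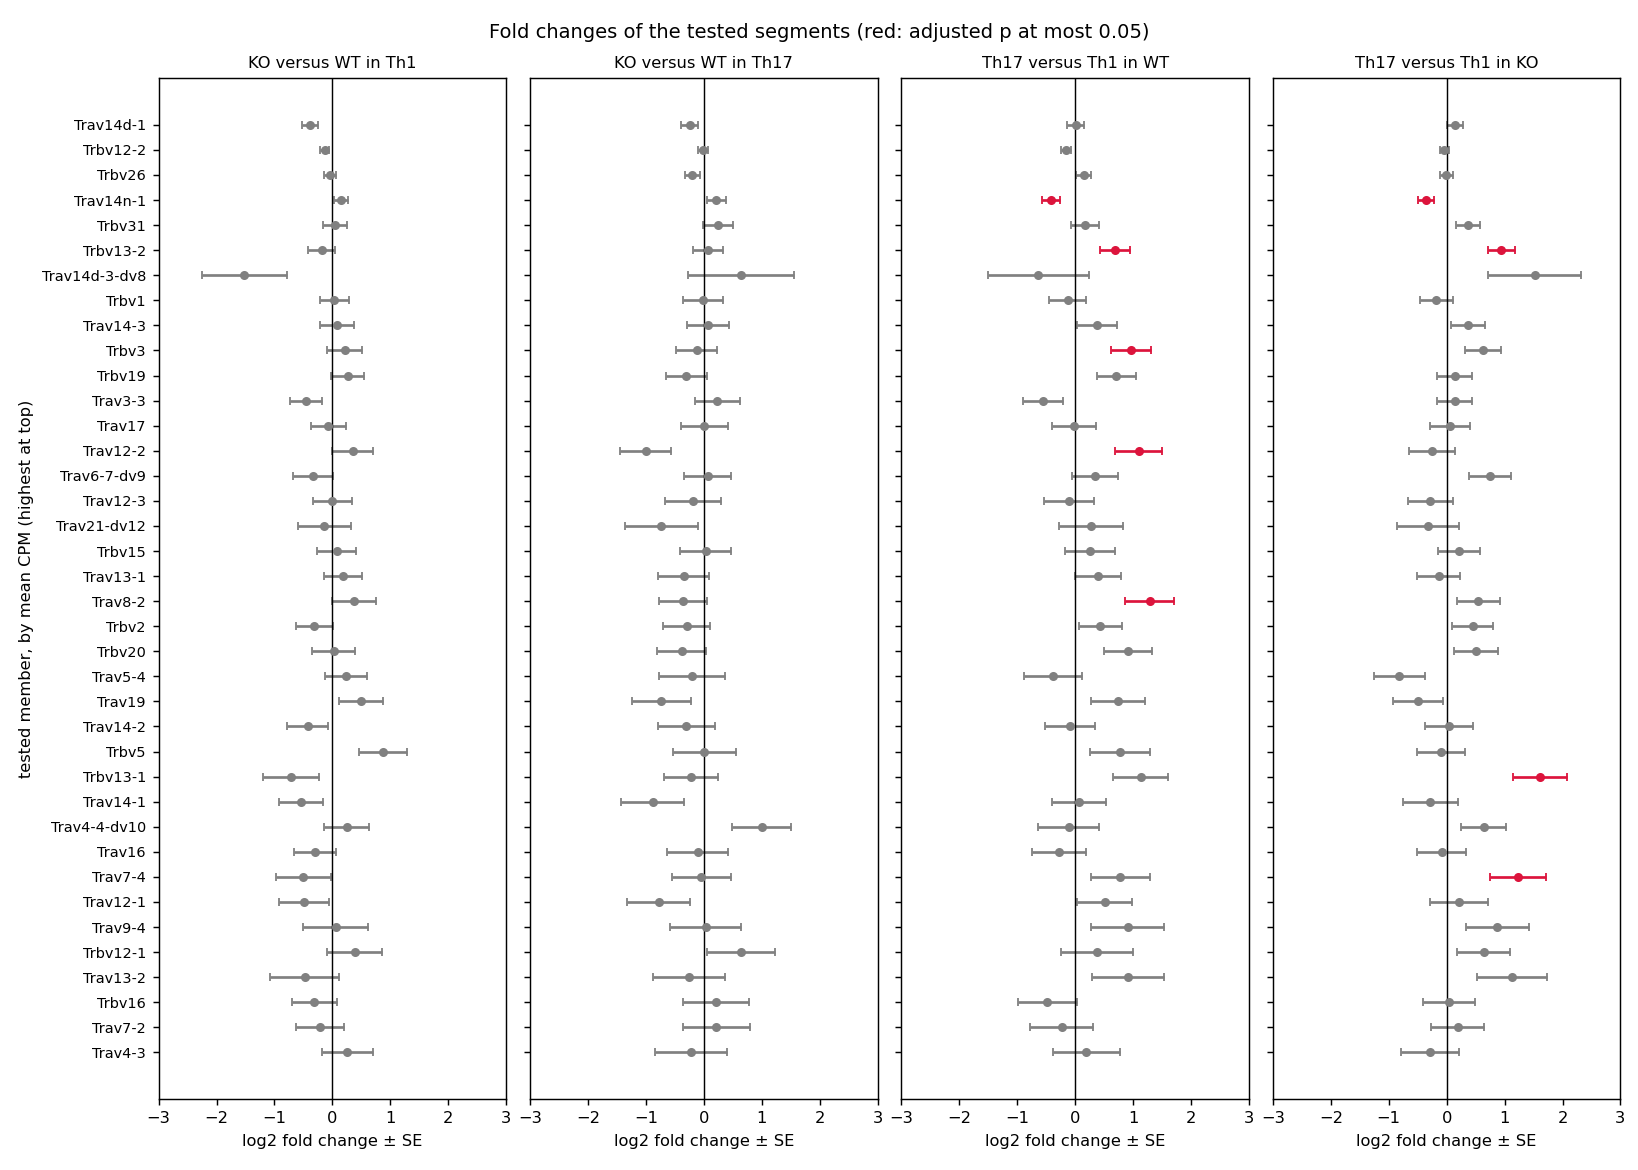
Log2 fold change ± SE of the 38 tested segments in 4 comparisons, ordered by mean CPM with the highest at the top; red marks an edgeR adjusted p of at most 0.05. No segment is red between KO and WT, and 5 and 4 are red between Th17 and Th1 in WT and KO.

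Some genes from the lists of markers of other cells were higher in the Th17 libraries. The 7 B cell markers used summed to 6.42 to 7.47 CPM in Th1 libraries and 18.2 to 36.7 CPM in Th17 libraries, all 7 with a count. Most of that difference was in Ebf1, a transcription factor of the B lineage, at 0 to 0.157 CPM in Th1 and 7.27 to 20.8 CPM in Th17. The 11 antigen-presenting and myeloid markers, all with a count, summed to 16.4 to 20.1 CPM in Th1 and 65.4 to 95.9 CPM in Th17. Cd74, the invariant chain of MHC class II, averaged 2.02 and 2.54 CPM in WT and KO of Th1 and 35.4 and 52.6 CPM in WT and KO of Th17. H2-Ab1, a class II beta chain, averaged 14.03 and 13.1 CPM in Th1 and 31.6 and 32.1 CPM in Th17 in the same order. Over the 12 libraries H2-Ab1 had 2553 counts, whereas H2-Aa, a class II alpha chain, had 31. Ighm had 927 counts, at 5.57 to 6.90 CPM in Th1 and 8.30 to 14.9 CPM in Th17 libraries. The B cell markers beside Ebf1 and Ighm had few counts in all 12 libraries: Igkc 40, Cd79b 35, Cd79a 30, Pax5 25 and Ms4a1 9. Th17 KO 3 held 31 of the counts of Igkc, 15 of Cd79b, 4 of Cd79a, 9 of Pax5 and 7 of Ms4a1. Of the antigen-presenting and myeloid markers, Flt3 had 186, Cd14 99, Fcer1g 37 and Lyz2 24 counts. Tyrobp had 11, Adgre1 8, Csf1r 7 and Itgax 7. The other Trav segments summed to 27.2 to 31.7 CPM in Th1 and 31.5 to 53.0 CPM in Th17. The 53.0 CPM came from 51 counts in the shallow library Th17 WT 3. The deeper libraries Th17 WT 1, Th17 KO 1 and Th17 KO 3 had 35.7, 32.2 and 33.8 CPM. Whether other cells were present, or had a part in the higher Th17 values of single segments, was not tested. In bulk RNA, more cells with a segment and more RNA of it per cell cannot be told apart.

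Other antigen receptor segments were counted in the same way. The 214 immunoglobulin variable segments together gave 0.208 to 4.45 CPM, with 54 of them seen. The 5 delta chain variable segments (Trdv) gave 0 to 3.11 CPM. Joining segments, counted as genes of their own, gave 15.7 to 32.4 CPM for the 59 Traj and 20.2 to 29.4 CPM for the 14 Trbj segments.

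The receptor pathway was fixed as a list of 12 genes, of which 9 were tested. Between KO and WT 1 was called in Th1 and 4 in Th17 with edgeR, beside 4.61% and 5.83% of all genes. Cd247, the zeta signalling chain, was lower in KO in both (log2 fold change -0.22, SE 0.06, edgeR adjusted p = 0.0252 in Th1, and -0.23, SE 0.06, 0.0269 in Th17). Dntt, the transferase that adds bases at receptor joints, was higher in Th17 KO (1.84, SE 0.40, edgeR adjusted p = 0.00514), with 16, 1 and 2 counts in Th17 WT and 74, 4 and 37 in Th17 KO. Trbc2 (-0.22, SE 0.07, edgeR adjusted p = 0.0479) and Cd4 (-0.23, SE 0.07, 0.0327) were lower in Th17 KO. Without the shallow libraries none of these 4 Th17 calls was kept (edgeR adjusted p = 0.166 for Cd247, 0.0562 for Dntt, 0.335 for Trbc2 and 0.277 for Cd4). Leaving out 1 library ended the Cd247 call in Th1 for Th1 WT 1, Th1 WT 2, Th1 KO 2 and Th1 KO 3 (edgeR adjusted p = 0.103 to 0.162). In Th17 it ended the Dntt call for Th17 WT 1 (0.0632) and Th17 KO 1 (0.0861). The calls of Cd247, Trbc2 and Cd4 in Th17 were each lost without Th17 WT 2, Th17 WT 3, Th17 KO 1, Th17 KO 3 or Th1 WT 2, that of Cd4 also without Th1 KO 2, and that of Trbc2 without Th1 WT 1 or any Th1 KO library (0.0501 to 0.219). With only the Th17 groups fitted, the edgeR adjusted p was 0.128 for Cd247, 0.135 for Trbc2 and 0.156 for Cd4. The Cd247 call in Th17 was also lost with no filter (edgeR adjusted p = 0.0698) and that of Trbc2 with DESeq2 (adjusted p = 0.0629).

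Between Th17 and Th1, 4 of the 9 were higher and 1 lower in each genotype, a share near the 47.1% and 53.6% of all genes called in WT and KO. Trbc1, a beta constant region, rose by 0.37 (SE 0.09, edgeR adjusted p = 0.0011) in WT and by 0.21 (SE 0.08, 0.0325) in KO on the log2 scale. Cd4, the coreceptor, rose by 0.69 (SE 0.06, edgeR adjusted p = 2.2e-09) and 0.54 (SE 0.06, 9.78e-08), and Cd3g, a CD3 subunit, by 0.48 (SE 0.06, 3.52e-07) and 0.34 (SE 0.06, 3.3e-05). The Trbc1 call in KO was lost without Th1 KO 2, Th1 KO 3, Th17 KO 1 or Th17 KO 3 (edgeR adjusted p = 0.108 to 0.204), with only the KO groups fitted (0.0603) and with DESeq2 (0.11). The remaining calls were Cd3e (0.19, SE 0.08, edgeR adjusted p = 0.04) and Dntt (-0.99, SE 0.41, 0.0499) in WT, and Cd3d (-0.19, SE 0.06, 0.0127) and Dntt (0.65, SE 0.27, 0.0469) in KO. They were lost under 9 of 19 alternatives for Cd3e, 1 for Cd3d (0.0544 without Th17 KO 1), and 13 and 10 for Dntt in WT and KO. Rag1, Rag2 and Ptcra, which act during rearrangement and beta chain selection in the thymus, had 3, 1 and 0 counts in all 12 libraries, and so were not tested.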

How the data were processed

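Poly-A RNA of 12 sorted samples was sequenced as read pairs of 75 bases from libraries that do not mark strand, per the labels' protocols. The authors deposited raw counts, whole numbers for each Ensembl gene that were not normalised, per the files' values. TopHat2, Bowtie2 and featureCounts with GRCm38 are named in the submitters' processing notes; their versions, the strand setting, the annotation release and how multi-mapping reads were treated are not given in the sources used here. Reads of near-identical segments could be split or dropped in counting, which affects many Trav segments. IDs were named with GENCODE M21 (37607 of 39179).

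Counts were normalised by TMM and filtered with filterByExpr in edgeR 4.0.16 (12189 genes kept), and tested with its robust quasi-likelihood test over all 12 libraries with Benjamini-Hochberg adjustment over all genes within each of 5 comparisons, at a threshold of 0.05. SE is the absolute log2 fold change over the root of F. Shares are ratios of summed counts with Wilson 95% intervals and were not tested, since the smallest exact permutation p for 3 against 3 is 0.1. Unique windows were those of 75 bases found in 1 annotated gene's transcripts. They were computed for the Trav and Trbv segments only, so losses of shared reads in Trbc1 and Trbc2 are unknown. Named were all Trav14 and Trbv12 genes, the 8 other segments per chain with the highest mean CPM, every called segment, Trav11, Trav11d and Trav1, and the constant, Cd4 and marker genes. Trbv5 was named after its values were seen. One of the fixed B cell markers is not reported here. Members and lists were chosen with earlier results of these data known. Labels carry no replicate numbers, so numbers follow the order of deposit and are only names. Alternatives were DESeq2 1.42.0, RLE size factors, all genes unfiltered, no shallow libraries, library sizes without ENSMUSG00000045999, family copies summed, only the groups compared, each library left out, a block by neighbouring library codes and, for shares and segment counts, other definitions. The procedure was tested on simulated data. R 4.3.3 and Python 3.11.15 were used.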

Additional observations from a re-analysis of the deposited data

How the results depend on the processing

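The labels do not say which libraries shared a co-culture, but the library codes in the titles run in neighbouring WT and KO pairs. As an alternative chosen after seeing the data, these were fitted as a replicate block in edgeR. It called 0 segments between KO and WT in Th1, in Th17 and for the difference between them (Trav14d-1 in Th1: -0.38, edgeR adjusted p = 0.286), while calls among all genes went from 562 to 1315 in Th1, from 711 to 1117 in Th17 and from 72 to 329 for the difference. Deviations from the group means correlated across genes at 0.136, 0.0287 and 0.166 in the Th1 pairs and 0.226, 0.0259 and -0.0622 in the Th17 pairs. Each library correlated best with its neighbour in Th1 but not in Th17. There Th17 WT 3 correlated best with Th17 KO 2 (0.109), and in both ENSMUSG00000045999 took a large share of counts (48.1% and 51.0%). The Th17 values therefore cannot decide whether the codes mark pairs. Since the labels do not state pairs, the main fit used none. With edgeR, 1 segment in place of 0 was called between KO and WT in Th1 with no filter, without the shallow libraries and with only those groups fitted. Leaving out 1 library gave 0 to 1 calls between KO and WT in Th1, in Th17 and for the difference between them, and 1 to 5 between Th17 and Th1 in WT and in KO. Without the shallow libraries 2 segments in place of 5 were called between Th17 and Th1 in WT, and 2 in place of 4 in KO; DESeq2 gave 2 in each, and fitting only the groups compared gave 2 in KO. The Th17 WT fit without shallow libraries assumes that its 1 library varies like the other groups. The Trbv12-2 difference between KO and WT in Th17 ran from -0.10 to 0.10 when 1 library was left out, turning positive without Th17 WT 1 (0.10) and without Th17 KO 2 (0.03). The cause of these changes was not tested.

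With Trav14d-1 alone in place of the family, the share of Trav counts was 97.1% and 96.0% in WT and KO of Th1 and 96.8% and 96.5% in WT and KO of Th17, by construction. The Trbv12 share of Th17 WT was 70.0% without the shallow libraries. Leaving out pseudogenes or pooling counts moved no share by more than 1 SD. For the Trbv12 share of Th17 WT this limit was loose, since its SD of 6.70 includes the low values of the shallow libraries. Pooling weights libraries by their counts, and so draws that share from its mean of 63.2% toward the 70.0% of Th17 WT 1. Not thinned, other Trav segments numbered 58.3, 56.0, 41.7 and 45.0 in the same order of groups, and other Trbv segments 18.7, 17.7, 16.3 and 16.3. At 3 counts or more the expected numbers were 6.96, 7.18, 7.58 and 5.85 for Trav and 7.0, 7.21, 7.30 and 6.89 for Trbv. With the dominant ID left out, an alternative chosen after seeing the data, they were 19.45, 18.97, 24.8 and 19.8 for Trav and 10.99, 11.01, 12.63 and 11.55 for Trbv. The 24.8 of Th17 WT was raised by 30.75 in the shallow Th17 WT 3, against 21.96 in Th17 WT 1 and 21.65 in Th17 WT 2. Depth limits single segments, most of which have a few counts per library.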
